A study of Homo sapiens with 6 samples.

Results

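Breast cancer stem cells are a fraction of tumor cells that is defined by its ability to start a new tumor and to renew itself, and a small panel of genes is commonly used to describe it. The panel followed here holds 10 genes chosen by name, with earlier results of these data known: the surface proteins CD44, CD24 and PROM1, the aldehyde dehydrogenases ALDH1A1 and ALDH1A3, the transcription factors SOX2, SOX9, KLF4 and MYC, and the polycomb protein BMI1. All 10 were found by symbol and Ensembl identifier among 60671 annotated genes. RNA had been sequenced from 6 samples of xenograft tumors, 3 of the tumor core (TC) and 3 of the tumor margin (TM). Every sample came from MDA-MB-231 cells, a human triple-negative breast cancer line with wild-type genotype in the labels, injected orthotopically into the fourth mammary fat pads of female NSG mice that were 6 to 8 weeks old, with no further treatment. These mice lack T, B and NK cells, the tumors derive from a single cell line, and the labels do not say whether a TC and a TM sample with the same number came from the same mouse. Levels are TPM, a unit of transcript abundance that corrects for transcript length, so that genes can be set side by side.

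The markers have separate origins and functions. CD44 is a receptor for hyaluronan, CD24 is a small, heavily glycosylated surface protein, and breast cancer cells that carry much CD44 and little CD24 were among the earliest described as tumor-initiating. PROM1 encodes CD133, a protein of membrane protrusions. ALDH1A1 and ALDH1A3 oxidise retinaldehyde to retinoic acid and are the main enzymes read by the fluorescent ALDH activity assay. SOX2, KLF4 and MYC belong to the set of factors that returns somatic cells to pluripotency, SOX9 marks progenitors in mammary epithelium, and BMI1 is a subunit of polycomb repressive complex 1, which silences developmental and cell cycle inhibitor genes.

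The panel divided into genes with clear levels and genes near 0. By the mean over 6 samples the order was CD44 (230.1 TPM), MYC (131.3), SOX9 (41.0), KLF4 (17.0), BMI1 (10.1), CD24 (5.19), ALDH1A3 (2.27), PROM1 (0.0533), ALDH1A1 (0.025) and SOX2 (0.0217). Neighbours in this order whose sample ranges overlapped were CD44 and MYC, KLF4 and BMI1, PROM1 and ALDH1A1, and ALDH1A1 and SOX2. For the other neighbours, the lowest sample of the higher gene lay above the highest sample of the lower gene. CD44 and MYC together made up between 79.2% and 85.9% of the panel's summed TPM in a sample.

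**Figure D1:**
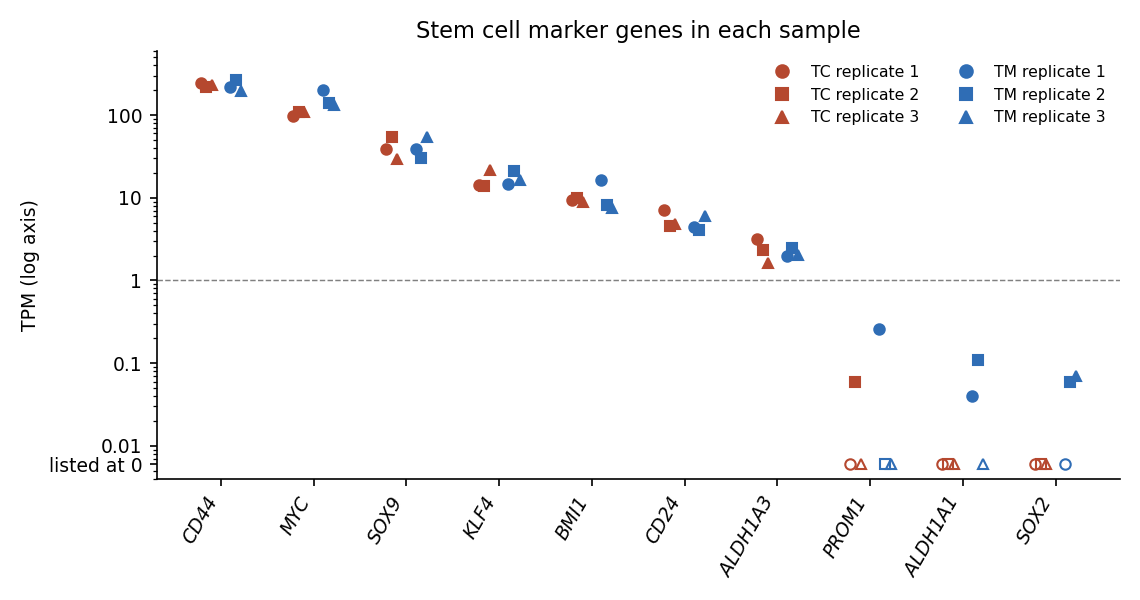
TPM of the 10 marker genes on a log axis, 1 symbol per sample (red, TC; blue, TM; circles, squares and triangles are replicates 1, 2 and 3; open symbols are listed at 0; the dashed line is 1 TPM). PROM1, ALDH1A1 and SOX2 lie below 1 TPM in all 6 samples, CD44 lies between 196.93 and 266.86 TPM, and MYC is the gene whose red and blue symbols do not overlap.

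To test whether the markers differed between core and margin, TC was compared with TM by limma on log2(TPM + 1) over the 13861 genes that reached 1 TPM in at least 3 samples. Of the 10 markers, 7 met that filter. None of the 7 was called at an adjusted p under 0.05, against 19 of all genes tested (0.137%), of which 18 were lower in TC (0.13%) and 1 higher (0.00721%). That split turned when single samples were left out, with 5 of 16 called genes lower in TC when TC replicate 2 was left out, and 3 of 9 when TM replicate 2 was. At an unadjusted p under 0.05, limma gave 1 marker, MYC, against 16.2% of all genes (14.2% lower and 1.93% higher in TC). The same gene, lower in TC, was also the 1 marker whose TC and TM samples did not overlap, against 22.2% of all genes tested (18.9% non-overlapping and lower in TC). A count of 1 in 7 is near that background. The median difference (TC minus TM) of the 7 markers was -0.0046 on the log2 scale, with 4 lower and 3 higher in TC. The median over all genes was -0.14, with 9283 lower and 4578 higher, so that a marker without a difference sat above the typical gene. This shift depended on scaling: after median-of-ratios rescaling the median of all genes was 0.021 and that of the markers 0.17. Without mitochondrial genes the median was -0.18 for all genes and -0.057 for the markers. Among genes at an unadjusted limma p under 0.05, 88.0% were lower in TC as deposited, 57.0% after median-of-ratios rescaling and 60.4% after quantile normalization. These 2 methods set the samples to a common centre, so a median near 0 and a more even split follow largely from them. Without mitochondrial genes 92.4% were lower. The mitochondrial share of TPM was 6.08% to 8.82% in TC and 9.23% to 11.1% in TM.

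**Figure D2:**
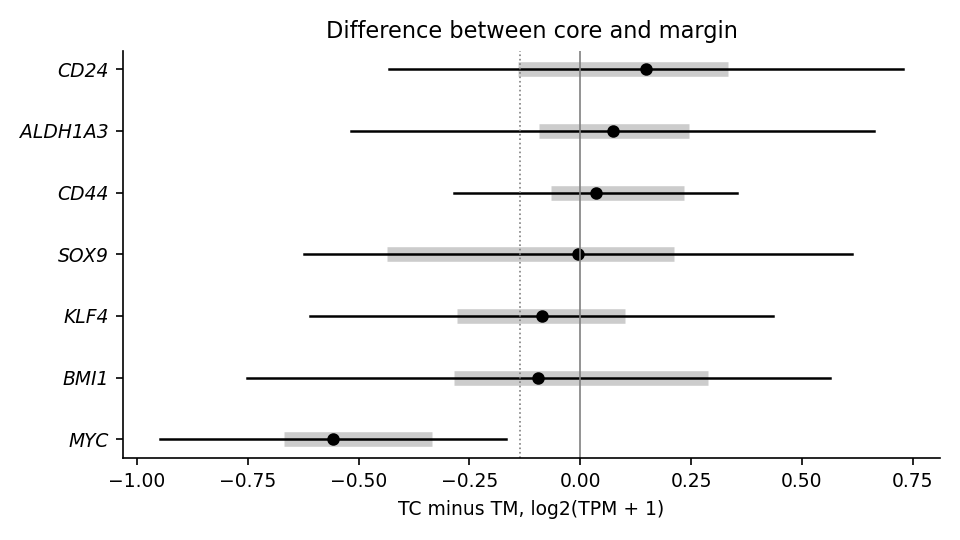
Difference between TC and TM (TC minus TM, as log2 of TPM + 1) for the 7 tested markers (dot, limma estimate; black line, 95% confidence interval; grey bar, range of the estimate over the alternative settings; dotted line, median of all 13861 genes at -0.14). The interval of MYC, -0.95 to -0.17, does not reach 0, and the intervals of the other 6 markers do.

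In several identity genes the libraries resembled the line they were labelled with. VIM, the mesenchymal intermediate filament, had a mean of 4625 TPM, and the keratins KRT7, KRT18 and KRT8 had 588.7, 479.5 and 398.5 TPM. ESR1 and PGR, the hormone receptors absent from triple-negative tumors, stayed at or below 0.13 and 0.22 TPM. The receptor ERBB2 was measured at 22.31 to 40.73 TPM. CDH1, the epithelial cadherin, reached at most 0.36 TPM. The cadherin CDH2 reached at most 0.39 TPM, and EPCAM, GATA3 and FOXA1 averaged 4.62, 3.08 and 2.96 TPM. Of the 18 identity genes 11 were tested, none was called and 1, ERBB2, lower in TC, had an unadjusted p under 0.05 by limma. Over all genes, 14.2% were at that p and lower in TC. Genes of host tissue separated 2 of the TM samples from the rest. The summed TPM of 14 skeletal muscle markers was 4.45 to 8.44 in TC, 199.1 in TM replicate 1, 543.0 in TM replicate 2 and 3.38 in TM replicate 3. That of 10 fibroblast markers was 66.3 to 226.3 in TC and 478.6, 1007.4 and 91.5 in the TM replicates 1, 2 and 3. The sum of the mammary epithelial markers was 42.3 to 60.8 in TC and 176.7, 219.8 and 68.8 in TM, most of it from ACTA2, which smooth muscle and fibroblasts also express. The sums of the endothelial markers did not overlap, at 37.8 to 41.9 in TC and 43.8 to 55.7 in TM. Of all single genes tested, 22.2% did not overlap. None of the 3 tested endothelial genes had an unadjusted limma p under 0.05. The sums of the macrophage (96.4 to 110.2 in TC, 103.1 to 113.8 in TM), adipocyte (16.4 to 29.2 and 16.9 to 30.4) and erythroid markers (1.10 to 6.93 and 0.29 to 4.82) overlapped. TYROBP, EMCN and ADIPOQ were at 0 throughout. ESAM (28.6 TPM on average) and ROBO4 (9.98 TPM) made up most of the endothelial sum, while PECAM1, VWF, KDR and CLDN5 averaged under 1 TPM. CD68 (88.9 TPM) and ADGRE1 (9.0 TPM) made up most of the macrophage sum, while PTPRC, CD14 and ITGAM stayed under 1 TPM in every sample. The milk protein genes CSN2, CSN3 and LALBA and the alveolar factor ELF5 were listed at 0 in all 6 samples. In such bulk samples, fewer cells of a type and less RNA per cell cannot be told apart.

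Among the surface markers, CD44 (ENSG00000026508, chr11:35138870-35232402, plus strand, positions on GRCh38 here and for the other genes) was the most abundant gene of the panel. Its TPM was 243.34, 221.66 and 231.24 in TC replicates 1 to 3 and 220.81, 266.86 and 196.93 in TM. The TM samples held the highest and the lowest value, and the TC samples fell between them. The means were 232.1 ± 10.9 in TC and 228.2 ± 35.5 in TM (SD, n = 3 each), a difference of 0.035 on the log2 scale (SE 0.14, 95% interval -0.28 to 0.35, limma adjusted p = 0.938). In each sample CD44 ranked between place 509 and place 618 of all annotated genes. The values sum all CD44 transcripts, so the standard and variant isoforms were not separated. The splicing regulators ESRP1 and ESRP2, which favour the variant isoforms in epithelial cells, had at most 0.21 and 0.37 TPM.

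CD24 (ENSG00000272398, chr6:106969831-106975627, minus strand) was measured at 7.20, 4.58 and 4.78 TPM in TC and at 4.39, 4.10 and 6.07 TPM in TM. TC replicate 1 and TM replicate 3 stood above the other 4 samples, and the groups overlapped. The difference was 0.15 (SE 0.25, interval -0.43 to 0.73, limma adjusted p = 0.832). CD24 has pseudogene copies in the genome that could share reads, and the 4 copies in the matrix were listed at 0 in all samples. CD44 exceeded CD24 in TPM by 33.8, 48.4 and 48.4 times in TC and by 50.3, 65.1 and 32.4 times in TM. The ratio was thus 43.5 ± 8.42 in TC and 49.3 ± 16.3 in TM (SD, n = 3 each), with overlapping groups, and the CD44-high, CD24-low order held at the RNA level in every sample. PROM1 (ENSG00000007062, chr4:15963076-16084378, minus strand) was listed at 0 in 4 samples, at 0.06 TPM in TC replicate 2 and at 0.26 TPM in TM replicate 1, and was not tested.

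Other surface proteins used to sort stem-like or mesenchymal cells were followed for context. Of 18 listed, 11 were tested, none was called by limma, and 1 passed an unadjusted p under 0.05. That gene was ENG, a TGF-beta co-receptor, with 17.1 ± 2.63 TPM in TC and 23.7 ± 2.49 TPM in TM (log2 difference -0.46, limma adjusted p = 0.254). ENG was no longer at such a p after median-of-ratios rescaling, when NT5E, higher in TC, was the 1 gene that was, or after quantile normalization, when none was. The most abundant were the nucleotidase NT5E (487.9 TPM), the tetraspanin CD9 (316.8 TPM) and the integrin chain ITGB1 (280.3 TPM). Of 17 genes that make, cleave or bind hyaluronan or link CD44 to the cytoskeleton, 13 were tested, none was called, and 1 had an unadjusted p under 0.05. This was NF2, which encodes merlin, a membrane-cytoskeleton linker and tumor suppressor that binds the CD44 tail, with 7.17 ± 0.373 TPM in TC and 14.0 ± 1.19 TPM in TM (log2 difference -0.88, SE 0.18, limma adjusted p = 0.0843). Moesin (MSN), a linker of the same family, was the most abundant of the list at 426.7 TPM, followed by ezrin (EZR, 138.3 TPM) and the hyaluronidase HYAL2 (52.8 TPM). The median differences of these lists were -0.08 and -0.14, beside -0.14 over all genes. Of all genes, 14.2% were at an unadjusted limma p under 0.05 and lower in TC.

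The aldehyde dehydrogenase markers were low. ALDH1A1 (ENSG00000165092, chr9:72900662-73080442, minus strand) was listed at 0 in the 3 TC samples and in TM replicate 3, and at 0.04 and 0.11 TPM in TM replicates 1 and 2. ALDH1A3 (ENSG00000184254, chr15:100877714-100916626, plus strand) had 3.17, 2.34 and 1.61 TPM in TC and 1.96, 2.48 and 2.03 TPM in TM. The TC samples held the extremes and the groups overlapped. The difference was 0.073 (SE 0.26, interval -0.52 to 0.66, limma adjusted p = 0.925). An antisense gene, ALDH1A3-AS1, overlaps it and was measured at 0.3 to 1.11 TPM, and no source used here says whether counting used the strand.

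ALDH1A3 was a small part of the family's RNA. The 19 ALDH genes summed to 290.8 ± 23.2 TPM in TC and 339.5 ± 24.3 TPM in TM, of which ALDH1A3 took 0.810% ± 0.237 and 0.638% ± 0.0993 (SD, n = 3 each). The largest were the proline-synthesis enzyme ALDH18A1 (74.8 TPM on average), the lysine-catabolism enzyme ALDH7A1 (52.1 TPM) and the fatty aldehyde dehydrogenase ALDH3A2 (45.1 TPM). Of the 17 family members besides the markers, 11 were tested and none was called. All 11 had lower estimates in TC as deposited, beside 67.0% of all genes. Their median was -0.24, and after median-of-ratios rescaling 8 of the 11 estimates were lower. ALDH16A1 was the 1 of 11 with an unadjusted p under 0.05, beside 14.2% of all genes at that p and lower in TC, with 27.2 ± 1.16 TPM in TC and 35.2 ± 4.47 TPM in TM (log2 difference -0.36, limma adjusted p = 0.299). No gene of the list was at such a p after median-of-ratios rescaling or quantile normalization. ALDH1A2, the retinaldehyde dehydrogenase of embryonic mesenchyme, was listed at 0.23, 0.06 and 0.56 TPM in TC and at 6.06, 3.39 and 0.06 TPM in TM. Its high samples were the TM samples with high muscle and fibroblast sums, whose part in this value was not tested.

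**Figure D3:**
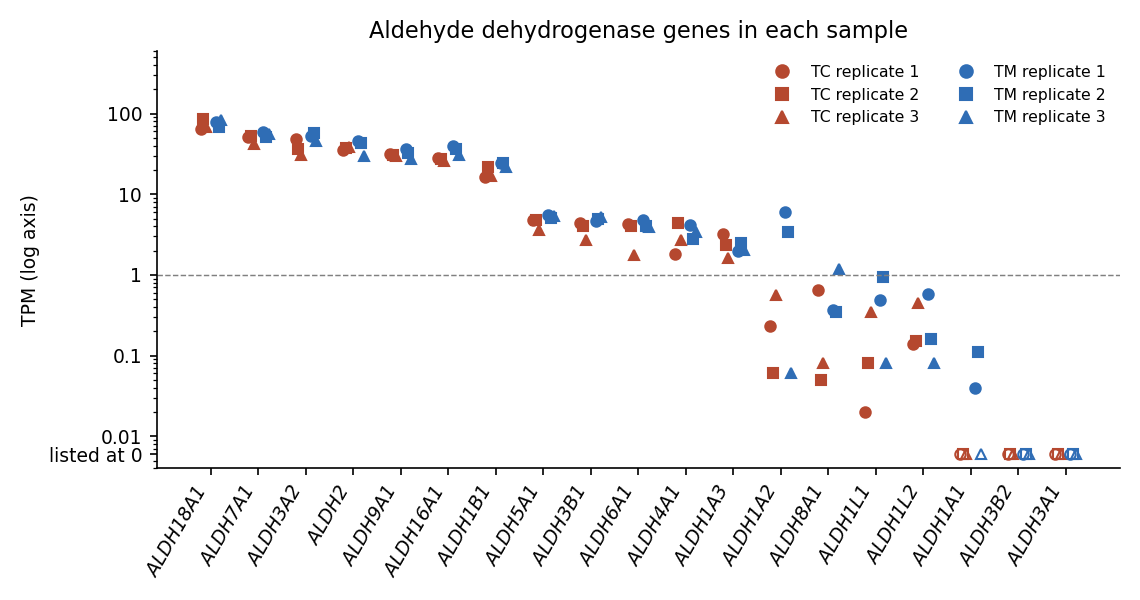
TPM of the aldehyde dehydrogenase genes on a log axis, 1 symbol per sample (red, TC; blue, TM; circles, squares and triangles are replicates 1, 2 and 3; open symbols are listed at 0). ALDH1A3 lies near 2 TPM and ALDH1A1 near 0, far under ALDH18A1 at a mean of 74.8 TPM, and ALDH1A2 is high in TM replicates 1 and 2.

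Genes of the retinoic acid pathway, which the ALDH1A enzymes feed, gave 13 tested genes of 19 listed and none called. At an unadjusted limma p under 0.05 was 1 of the 13 (7.69%), CYP26B1, beside 14.2% of all genes at that p and lower in TC. CYP26B1, which degrades retinoic acid, had 9.40 ± 1.55 TPM in TC and 15.8 ± 0.787 TPM in TM (log2 difference -0.70, SE 0.19, limma adjusted p = 0.128). Estimates were lower in TC for 12 of the 13 (median -0.25), beside 67.0% of all genes. After median-of-ratios rescaling they were lower for 10 of the 13, and the median of all genes was then 0.021. The fatty acid and retinoid carrier FABP5 was the most abundant, at 161.5 TPM, followed by the retinoic acid-induced transglutaminase TGM2 (137.0 TPM) and the retinol dehydrogenase RDH11 (53.3 TPM).

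Of the transcription factors, SOX2 (ENSG00000181449, chr3:181711924-181714436, plus strand) was listed at 0 in all TC samples and in TM replicate 1, and at 0.06 and 0.07 TPM in TM replicates 2 and 3. The surrounding non-coding gene SOX2-OT reached at most 0.3 TPM. Other factors of the pluripotency network were also near 0. Of 14 listed, 3 were at 0 and 8 more stayed below 1 TPM in every sample. POU5F1, the core factor OCT4, had 0.14 to 0.47 TPM and NANOG at most 0.02 TPM. The chromatin proteins HMGA1 (1218 TPM) and HMGA2 (94.2 TPM), which are abundant in embryonic and transformed cells, carried almost all RNA of that list. They were tested with TFCP2L1 (1.02 TPM), none of the 3 had an adjusted or unadjusted p under 0.05 by limma, and their median difference was -0.27.

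SOX9 (ENSG00000125398, chr17:72121020-72126420, plus strand) had 38.58, 54.83 and 29.68 TPM in TC and 38.40, 30.48 and 54.19 TPM in TM. TC replicate 2 and TM replicate 3 were similarly high, and each group covered nearly the whole range. The means were 41.0 ± 12.8 and 41.0 ± 12.1 TPM (SD, n = 3 each), with a difference of -0.0046 (SE 0.27, interval -0.62 to 0.61, limma adjusted p = 0.995). The interval is wide enough to hold a change of 1.5 times in either direction. The antisense gene SOX9-AS1 overlaps SOX9 and had 0.35 to 2.52 TPM. Among 16 other SOX genes 4 were tested, with SOX4 (15.4 TPM), SOX12 (9.25 TPM) and SOX13 (6.10 TPM) the highest and a median difference of -0.30. None was called. SOX13 (4.79 ± 0.792 TPM in TC, 7.41 ± 0.267 TPM in TM, limma adjusted p = 0.253) was the 1 of the 4 at an unadjusted p under 0.05. Of all genes, 14.2% were at that p and lower in TC. SOX13 was not at such a p after median-of-ratios rescaling or quantile normalization.

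KLF4 (ENSG00000136826, chr9:107484852-107490482, minus strand) had 14.41, 13.78 and 21.44 TPM in TC and 14.56, 21.38 and 16.59 TPM in TM. TC replicate 3 and TM replicate 2 were high and nearly equal, and the groups overlapped. The difference was -0.087 (SE 0.23, interval -0.61 to 0.44, limma adjusted p = 0.895). KLF4 was not the main factor of its family by RNA. KLF6, an injury-response factor, had 105.4 TPM, KLF16 had 42.6 TPM and KLF10, a TGF-beta-induced factor, had 41.5 TPM. Of 16 other KLF genes 11 were tested and none had an adjusted or unadjusted p under 0.05 by limma (median -0.13, and 0.04 after median-of-ratios rescaling).

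MYC (ENSG00000136997, chr8:127735434-127741434, plus strand), a factor that drives ribosome production and growth, had 98.19, 107.77 and 109.39 TPM in TC and 199.92, 140.12 and 132.68 TPM in TM. Every TM sample lay above every TC sample, with TM replicate 1 far above the other TM samples. The means were 105.1 ± 6.05 TPM in TC and 157.6 ± 36.9 TPM in TM (SD, n = 3 each), so that the TM mean was 1.50 times the TC mean. The log2 difference was -0.56 (SE 0.17, interval -0.95 to -0.17, limma unadjusted p = 0.0108, adjusted p = 0.168). The adjusted p missed the threshold, and 6.46% of all genes tested had a smaller p. After median-of-ratios rescaling the difference was -0.38 and limma's unadjusted p = 0.0517, and the rescaled values still did not overlap. TM replicate 3 was above each TC sample at 132.68 TPM. Its muscle and fibroblast sums lay under or within the TC range. Its endothelial (43.8), mammary epithelial (68.8) and adipocyte sums (30.4) lay above that range. With TM replicates 1 and 2 left out, a choice made after seeing the data, the difference was -0.33 (limma unadjusted p = 0.109). The TM group then holds 1 sample, which is assumed to vary like the TC samples. The part of host RNA in the higher TM values was not tested.

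MYC supplied 99.5% to 99.9% of the summed TPM of MYC, MYCN and MYCL in each sample. Its partner MAX, without which MYC does not bind DNA, had 42.8 ± 5.00 TPM in TC and 50.7 ± 4.63 TPM in TM (log2 difference -0.24, limma adjusted p = 0.478), so that MYC exceeded MAX by 2.24 to 3.59 times. Of the 16 genes of the MYC family and the MAX network, 13 were tested and none was called, with 3 at an unadjusted p under 0.05, all lower in TC, beside 14.2% of all genes. After median-of-ratios rescaling or quantile normalization 1 of the 3, MLXIP, was at such a p. MLXIP, the glucose-sensing factor MondoA, had 14.8 ± 0.910 TPM in TC and 26.3 ± 3.79 TPM in TM (log2 difference -0.78, limma adjusted p = 0.0870). ZBTB17, which encodes MIZ1, had a difference of -0.53 (limma adjusted p = 0.200), as had MNT, a repressor that competes for MAX (adjusted p = 0.230). By level, the mitotic kinase AURKA (52.2 TPM), which stabilises MYC proteins, MLX (48.7 TPM), the partner of MLXIP, and MAX (46.7 TPM) led the list. The network's median was -0.24, with 12 of 13 lower as deposited, beside 67.0% of all genes, and 11 of 13 after median-of-ratios rescaling.

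Well-known targets of MYC were read beside it. Of 25 listed, 23 were tested, none was called, and 5 had an unadjusted p under 0.05, all lower in TC. That is 21.7% of the tested targets, beside 14.2% of all genes at that p and lower in TC. NOP56, a core protein of the box C/D ribonucleoproteins that modify ribosomal RNA, had 145.7 ± 20.9 TPM in TC and 241 ± 20.2 TPM in TM (a log2 difference of -0.73 with SE 0.14, limma adjusted p = 0.0843). CAD, the enzyme that opens pyrimidine synthesis, had 30.2 ± 3.95 TPM in TC and 47.8 ± 6.59 TPM in TM (log2 difference -0.64, SE 0.17, limma adjusted p = 0.124). DKC1, RRS1 and BOP1, 3 genes of ribosome biogenesis, made up the rest, with adjusted p between 0.258 and 0.268. Targets without such a difference included NPM1, the most abundant at 1995 TPM (-0.03), and the lactate dehydrogenase LDHA, whose mean was 1586 TPM and whose estimate was higher in TC (0.24, limma adjusted p = 0.392). EIF4A1, a translation initiation helicase, followed by level at 1210 TPM. The list's median was -0.23, with 20 of 23 lower, beside 67.0% of all genes. After median-of-ratios rescaling it was -0.06 with 15 of 23 lower, and the genes at an unadjusted p under 0.05 were then NOP56 and CAD, lower in TC, and LDHA, higher in TC.

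**Figure D4:**
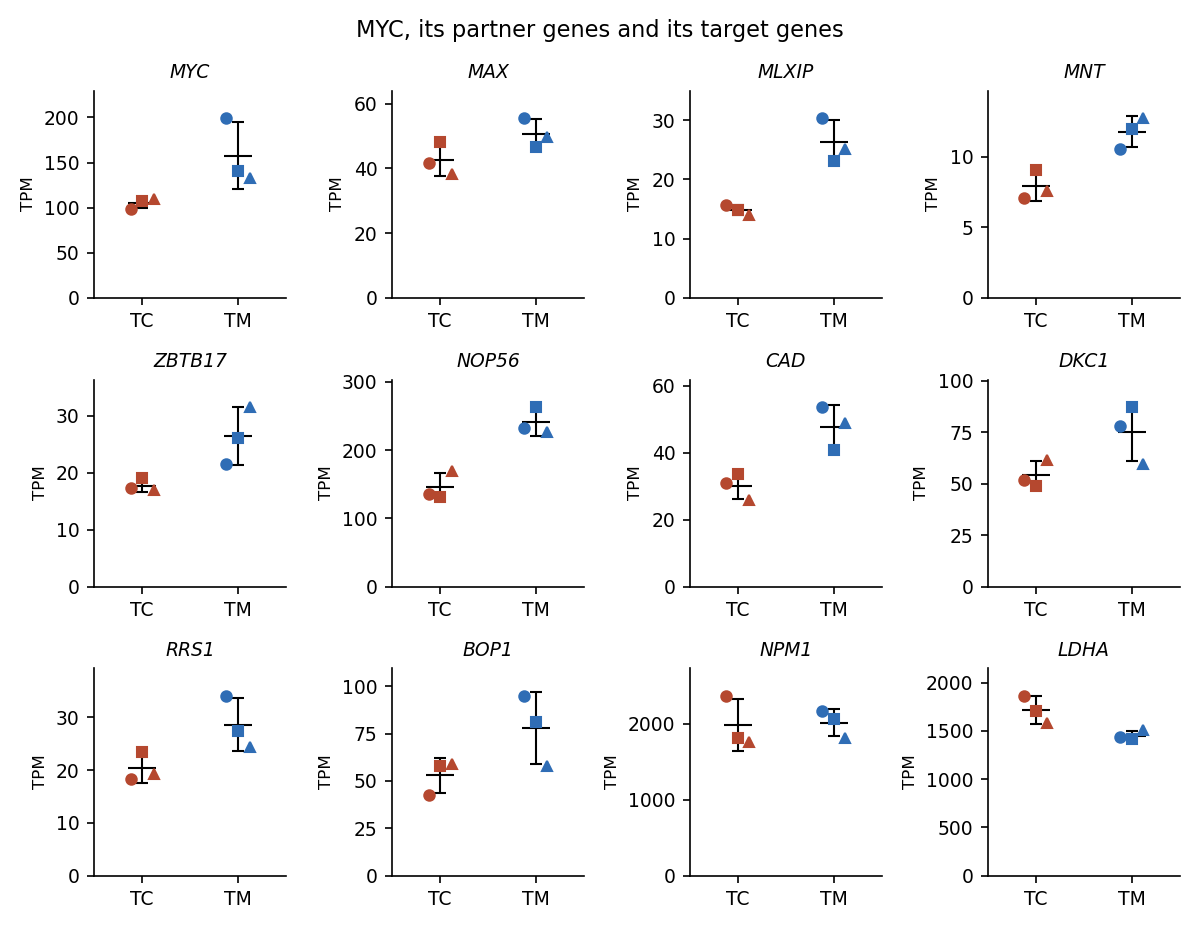
TPM of MYC, genes of the MAX network and MYC targets in TC (red) and TM (blue), 1 symbol per sample with mean ± SD (n = 3 each). Besides MYC, MAX, NPM1 and LDHA, the genes shown are those at an unadjusted limma p under 0.05. Of the 23 tested targets, 5 were at such a p. MYC lies between 98.19 and 109.39 TPM in TC and between 132.68 and 199.92 TPM in TM, and NOP56 and CAD also have lower means in TC.

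BMI1 (ENSG00000168283, chr10:22321211-22331484, plus strand) had 9.50, 9.82 and 8.94 TPM in TC and 16.45, 8.23 and 7.53 TPM in TM. TM replicate 1 stood above all samples, while TM replicates 2 and 3 lay under the 3 TC samples. The difference was -0.094 (SE 0.29, interval -0.75 to 0.56, limma adjusted p = 0.912), and without TM replicate 1 it turned to 0.23. A readthrough gene, COMMD3-BMI1, overlaps BMI1 on the same strand and includes its exons, so reads could be divided between them. It was measured at 23.19, 17.95 and 16.27 TPM in TC and at 24.73, 15.88 and 20.61 TPM in TM, above BMI1 in every sample. The sum of both was 28.6 ± 3.80 TPM in TC and 31.1 ± 8.92 TPM in TM, again with TM replicate 1 highest and overlapping groups.

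All 25 other polycomb subunits were tested. None was called, and 4 (16.0%) had an unadjusted p under 0.05, beside 14.2% of all genes at that p and lower in TC. EZH2, the methyltransferase of polycomb repressive complex 2, had 20.3 ± 3.25 TPM in TC and 29.2 ± 4.73 TPM in TM (log2 difference -0.50, limma adjusted p = 0.245). The other 3, the complex 1 subunits CBX6 and PHC1 and the related SCMH1, had adjusted p between 0.258 and 0.289. Estimates were lower in TC for 21 of 25 as deposited (median -0.25), beside 67.0% of all genes. After median-of-ratios rescaling they were lower for 17 of 25, and none had an unadjusted limma p under 0.05. PHC2 (149.9 TPM), RBBP7 (105.4 TPM) and RBBP4 (80.0 TPM) were the most abundant. BMI1 made up 5.58% to 10.0% of the summed TPM of the PCGF genes to which it belongs. CDKN2A and CDKN2B, the cell cycle inhibitor genes that BMI1 is best known to silence, were listed at 0 in all 6 samples, so that this readout was not measurable here. CDKN1A, the p53-induced inhibitor p21, had 56.9 TPM, CDKN1B 21.9 TPM and CDKN1C 9.58 TPM. These 3 tested inhibitor genes had a median difference of 0.14, and none had an adjusted or unadjusted p under 0.05 by limma.

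Genes of the Notch, Wnt and Hedgehog pathways, which control renewal in many stem cells, were listed at 32, of which 22 were tested and none was called. The receptor NOTCH1 had 5.95 ± 1.27 TPM in TC and 11.1 ± 1.60 TPM in TM (log2 difference -0.81, SE 0.22, limma adjusted p = 0.137). GLI3, a Hedgehog transcription factor, had a difference of -0.82 (limma adjusted p = 0.179) and NOTCH2 of -0.56 (adjusted p = 0.274). With NOTCH1 these were the 3 at an unadjusted limma p under 0.05, 13.6% of the tested genes. Over all genes, 14.2% were at that p and lower in TC. The Wnt effector CTNNB1 (425.8 TPM), the Wnt inhibitor DKK1 (136.7 TPM) and the Wnt co-receptor LRP5 (35.5 TPM) were the most abundant. The median was -0.26 with 19 of 22 lower, beside 67.0% of all genes. After median-of-ratios rescaling 13 of 22 were lower, and 2, NOTCH1 and GLI3, were at an unadjusted limma p under 0.05.

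**Figure D5:**
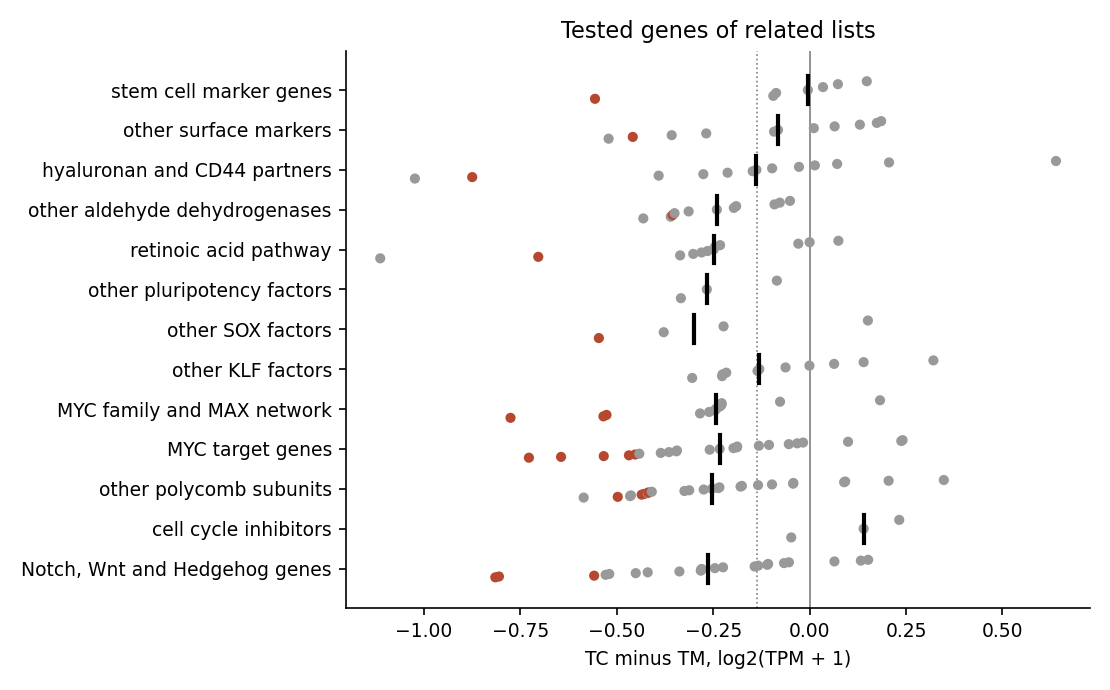
Difference between TC and TM (TC minus TM, as log2 of TPM + 1) for the tested genes of the related gene lists (1 dot per gene; red, unadjusted limma p under 0.05; black bar, median of the list). List medians lie between -0.30 and 0.14, beside -0.14 over all genes, and no dot is a gene called at an adjusted p under 0.05.

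The panel's genes varied among samples in different ways. Over the 6 samples the highest Pearson correlation of log2 values between tested markers was 0.650 (MYC with BMI1, both highest in TM replicate 1), and the lowest was -0.740 (CD44 with SOX9). With 6 points that share library and host content, these are descriptions only. The genes whose pattern was most like each marker are named by the same measure. For MYC they were MAD1L1 (r = 0.998), DHX37 (0.994) and SPRYD4 (0.991), and for CD44 they were ZNF367 (0.997), FAM133B (0.978) and PERPP2 (0.977). For SOX9 they were STK16 (0.987), XRCC1 (0.985) and TMBIM1 (0.983), and for KLF4 they were NTNG2 (0.979), TREX1 (0.975) and CSRNP1 (0.968). CD24 was nearest to SLC46A3 (0.992), GGH (0.987) and TATDN1 (0.984), and ALDH1A3 to SETD4 (0.992), CENPL (0.990) and NAP1L4P1 (0.989). Genes with a pattern like that of BMI1 included PAK1IP1 (0.986) and RSU1 (0.973). Such values are common with 6 samples: of the 13860 other genes tested, 314 had r above 0.9 with MYC, 125 with SOX9, 101 with BMI1 and between 41 and 88 with the other 4 markers.

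Promoter sequence was read for the markers with an entry in RefSeq on GRCh38.p14, 8 of the 10, as the 240 bases that end 10 bases before the annotated start. SOX2 and ALDH1A1 are shown because their RNA was near 0, and KLF4 and BMI1 because they were measured and hold CACGTG, the E-box bound by MYC and MAX. Capitals mark CG dinucleotides and CACGTG.
SOX2, chr3:181711675-181711914, plus strand: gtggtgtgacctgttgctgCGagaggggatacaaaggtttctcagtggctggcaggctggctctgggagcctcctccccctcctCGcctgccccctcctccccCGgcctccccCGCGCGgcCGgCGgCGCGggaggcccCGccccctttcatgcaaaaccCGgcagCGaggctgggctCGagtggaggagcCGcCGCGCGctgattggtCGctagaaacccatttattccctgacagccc
ALDH1A1, chr9:72953064-72953303, minus strand: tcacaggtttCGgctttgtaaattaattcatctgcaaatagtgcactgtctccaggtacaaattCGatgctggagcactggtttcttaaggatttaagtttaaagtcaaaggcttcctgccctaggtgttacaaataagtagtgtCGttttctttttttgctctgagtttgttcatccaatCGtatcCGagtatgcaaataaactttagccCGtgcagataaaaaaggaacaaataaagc
KLF4, chr9:107489780-107490019, minus strand: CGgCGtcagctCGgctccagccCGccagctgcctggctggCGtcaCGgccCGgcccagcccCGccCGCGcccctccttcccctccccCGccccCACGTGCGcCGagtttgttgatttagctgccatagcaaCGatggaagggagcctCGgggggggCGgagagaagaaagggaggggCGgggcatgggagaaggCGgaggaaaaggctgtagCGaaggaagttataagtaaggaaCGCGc
BMI1, chr10:22320849-22321088, plus strand: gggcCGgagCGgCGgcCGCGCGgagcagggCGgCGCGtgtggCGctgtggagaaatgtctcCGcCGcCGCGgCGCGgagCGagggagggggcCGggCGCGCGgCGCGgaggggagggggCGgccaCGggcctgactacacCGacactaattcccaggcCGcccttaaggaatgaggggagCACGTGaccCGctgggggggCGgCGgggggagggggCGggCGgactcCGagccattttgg
The SOX2 window held 19 CG dinucleotides and the ALDH1A1 window 6, beside a median of 10 over 35116 windows of the same length. The KLF4 window held 22, the BMI1 window shown 34 and that of another BMI1 start 53. Among the other measured markers, CD44 had 14, ALDH1A3 37, and CD24 19, 24 and 17 at its annotated starts. PROM1, the other marker near 0, has 4 annotated starts, whose windows held 13, 26, 16 and 5. CACGTG, which reads the same on both strands, was present in 6.01% of all windows and in no other window of the 8 markers. TATAAA, searched on both strands, was in none of their windows and in 10.6% of all. These matches describe letters in the window, not binding.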

How the data were processed

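RNA was measured in 3 TC and 3 TM samples, grouped by their titles. Per the study's methods and the submitters' processing notes, SeqPrep and Sickle served for trimming, reads were aligned to hg38 with HISAT2, assembled with StringTie and quantified with RSEM, and the authors deposited a matrix of TPM. The annotation release is not given in the sources used here, and no step that parts mouse from human reads was described. TPM keeps no depth, so depth is unknown and the DESeq2 model of the study was not run. The column total was 1000000 for 5 samples and 994381 for TM replicate 3. The 259 unannotated loci were left out.

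Genes that reached 1 TPM in 3 or more samples were compared as log2(TPM + 1) with limma 3.58.1 in R 4.3.3 (mean-variance trend, two-sided, Benjamini-Hochberg over 13861 genes, called under 0.05), and differences understate the change of low genes. The model was tested on simulated data with changes larger than any marker's difference here, so that test does not bear on small differences. The study describes 3 mice per group, while the labels tie no sample to an animal. Positions are from GENCODE v29, which held 96.3% of the genes, and promoter windows from RefSeq. The genes named are all markers, the 3 genes most like each tested marker (for BMI1, 1 of them is not reported here), close relatives of a marker, and, of each of 13 other lists, the 3 most abundant and up to 5 genes with the smallest unadjusted p under 0.05. For 7 host lists mainly the summed TPM is given. Markers, lists and rules were chosen with earlier results of these data known. Alternatives covered the pseudocount, filter, scaling, mitochondrial genes, moderation, a replicate block and left-out samples.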

Additional observations from a re-analysis of the deposited data

How the results depend on the processing

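No marker was called under any alternative. The difference of MYC kept its sign in 17 of 17 alternatives, from -0.67 to -0.33, with an unadjusted limma p under 0.05 in 15 and an adjusted p from 0.104 to 0.475. The exceptions were median-of-ratios rescaling and leaving out TM replicates 1 and 2, which gave 0 markers at an unadjusted p under 0.05. The latter is a fit of 3 TC samples against 1 TM sample, which is assumed to vary like the TC samples. Small differences changed sign. Quantile normalization gave 0.14 for SOX9, 0.10 for KLF4 and 0.096 for BMI1, and median-of-ratios rescaling gave 0.17, 0.083 and 0.071. Without mitochondrial genes CD44 was at -0.019, and with TM replicates 1 and 2 left out CD24 was at -0.14 and BMI1 at 0.29. Leaving out 1 sample at a time gave -0.066 to 0.15 for CD44, -0.028 to 0.29 for CD24, -0.093 to 0.25 for ALDH1A3, -0.23 to 0.21 for SOX9, -0.28 to 0.058 for KLF4 and -0.29 to 0.23 for BMI1. The count of called genes, 19 as reported, was 7 with a pseudocount of 0.1, 1 with no filter, 4 after quantile normalization, 6 after median-of-ratios rescaling, 12 without the trend, 47 with robust moderation and 195 with TM replicates 1 and 2 left out, again against 1 TM sample. It was 4 without TC replicate 1, 1 without TC replicate 3, 1 without TM replicate 1 and 9 without TM replicate 2, and 1 to 17 over all samples left out in turn. Most called genes were then higher in TC in several of these fits, with 5 of 16 lower without TC replicate 2 and 3 of 9 lower without TM replicate 2. Without mitochondrial genes 26 genes were called, 25 of them lower in TC. In that setting 8 of 23 MYC targets, 9 of 25 polycomb subunits and 3 of 11 aldehyde dehydrogenases were lower at an unadjusted limma p under 0.05. Of all genes, 18.5% were then at that p in either direction. A replicate block gave 1 called gene, and MYC at a limma adjusted p of 0.299. Samples with the same number deviated with correlations of 0.21, -0.12 and -0.16, and 1 of 3 TC samples correlated best with its own number, so the numbers were not taken to pair the samples. The cause of these changes was not tested. With 3 samples a group and unknown depth, the intervals of SOX9, KLF4, CD24, ALDH1A3 and BMI1 hold changes of over 1.5 times, and levels under 1 TPM were not tested.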

Other observations

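ERBB2, the receptor whose amplification defines a separate class of breast cancer, had 23.4 ± 0.968 TPM in TC and 36.0 ± 4.97 TPM in TM. The log2 difference was -0.59 (limma adjusted p = 0.128), in size close to that of MYC. It was the 1 of 11 tested identity genes at an unadjusted limma p under 0.05, beside 14.2% of all genes at that p and lower in TC.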
